A study of Homo sapiens with 3 samples.

Results

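The HOX genes are the homeobox genes of 4 chromosomal clusters, HOXA to HOXD. Those to which the annotation used here gives a probe set of their own were followed in HT-29 cells. RefSeq lists 39 HOX genes in the 4 clusters. The members were taken by symbol, as HOX with a cluster letter and a number, from the probe sets that the platform annotation gives 1 gene symbol. This gave 24 members on 31 probe sets, among 11963 genes named in all: HOXA2 alone in the HOXA cluster, 9 of 10 genes of HOXB, 7 of 9 of HOXC and 7 of 9 of HOXD. The other 15 genes, which include 10 of the 11 HOXA genes, were not analysed here. The annotation used did not list 2169 rows of values. The absence of these genes therefore does not show that the array has no probe set for them.

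HT-29 is an established line of epithelial cells from a human colon adenocarcinoma. The cells were seeded at 50000 per cm2 in McCoy's 5A medium with 10% serum under 5% CO2, kept for 24 h and then given interferon-γ (IFN-γ) at 200 U/ml for 24 h. Total RNA from 3 replicates, described by the series as biological, was hybridised to 1 Affymetrix array each. How the replicates were separated is not stated, so p-values measure the spread between these arrays, which may be partly technical. No untreated culture was analysed here, so every value is a level in treated cells and none measures a response to IFN-γ. The signals are linear intensities from MAS5, an Affymetrix summary of the probes of a set, and the median signal was 137, 144 and 141 in replicates 1, 2 and 3.

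HOX proteins are transcription factors with a homeodomain that binds DNA. They give cells their position along the body axis, and the order of the genes within a cluster follows the order in which they are used along that axis, with low numbers acting towards the head and high numbers towards the tail. Genes that carry the same number in different clusters are paralogues that arose when the whole cluster was duplicated. Many adult epithelia, the gut among them, keep part of this pattern, and silent HOX genes are a textbook target of Polycomb repression.

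Where a gene had several probe sets, the set whose log2 signal was highest on average stood for it. A gene was called detected when its signals exceeded a background limit, set for each array, by more than their spread between replicates accounted for. The limit was the 95th percentile of 71 measured genes that are restricted to other tissues, a signal of 212, 223 and 173 in replicates 1, 2 and 3. Differences from the limit are given in log2 units. The test was limma's moderated one, one-sided, and its p-values were adjusted by Benjamini-Hochberg across the 11963 genes, with a threshold of 0.05. In cultures measured in bulk, fewer cells with a transcript and less of it per cell cannot be told apart.

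The sequences before the start sites of 4 members are shown in 3 windows. HOXC4 and HOXC5, which differ in call, have the same annotated start, so that 1 window stands for both, while HOXD4 is the paralogue of HOXC4 with the same number, and HOXB1 lies at the low-numbered end of the cluster with the most detected genes. Each line gives the 250 bases before the start, from RefSeq on assembly GRCh38.p14, 5′ to 3′ on the strand of the gene, with CpG dinucleotides in capitals. The HOXC4 and HOXC5 window is chr12:54016638-54016887 on the plus strand, the HOXD4 window is chr2:176151300-176151549 on the plus strand, and the HOXB1 window is chr17:48531012-48531261 on the minus strand.
HOXC4 and HOXC5: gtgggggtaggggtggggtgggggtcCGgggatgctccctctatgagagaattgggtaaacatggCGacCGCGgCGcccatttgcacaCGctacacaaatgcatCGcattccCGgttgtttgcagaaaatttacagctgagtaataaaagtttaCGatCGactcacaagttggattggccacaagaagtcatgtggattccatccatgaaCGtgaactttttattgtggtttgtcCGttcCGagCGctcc
HOXD4: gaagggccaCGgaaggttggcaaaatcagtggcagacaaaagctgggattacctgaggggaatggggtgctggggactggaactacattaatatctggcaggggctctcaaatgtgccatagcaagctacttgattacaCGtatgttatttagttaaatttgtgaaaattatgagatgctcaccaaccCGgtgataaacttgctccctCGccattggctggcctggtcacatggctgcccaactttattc
HOXB1: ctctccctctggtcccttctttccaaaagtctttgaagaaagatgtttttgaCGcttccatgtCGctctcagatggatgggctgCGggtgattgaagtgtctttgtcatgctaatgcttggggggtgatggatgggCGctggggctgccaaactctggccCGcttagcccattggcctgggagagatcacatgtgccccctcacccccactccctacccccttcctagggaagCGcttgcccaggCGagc

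RefSeq promoter windows matched 10 of the 24 members, in 9 distinct windows. The shared HOXC4 and HOXC5 window holds 14 CpG dinucleotides, the HOXD4 window 4 and the HOXB1 window 7, against a median of 11 over 34943 promoter windows of the same length and a range of 4 to 31 over the 9 HOX windows. The letters CCAAT were found on either strand in 8 of the 9 HOX windows and in 32.0% of all windows. The letters TGATNNAT, a composite site of PBX and HOX proteins, were found in 3 of 9, those of HOXA2, HOXB1 and HOXD11, and in 6.49% of all windows. TATAAA, the letters of a TATA box, occurred in 1 of 9, that of HOXD13, and in 10.8% of all. Every motif was sought on both strands over the whole window, so 10.8% is not the share with a TATA box near the start. The letters TTTATG, a site of CDX proteins, were found in none of the 9 windows and in 9.66% of all. A match describes the letters of a window and does not show that a factor binds there.

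The names of the probe sets had to be placed before any gene could be read. Under the names as deposited, distant probe sets of the same gene did not have related signals: over 2973 genes whose probe sets lie at least 1000 rows apart, log2 signals correlated with r = -0.04. The order used here, which moves all 31 HOX probe sets by 487 rows, gave r = 0.51 over 3031 such genes, and moving the names by 1 to 6 more rows either way gave r between -0.02 and 0.05. These are correlations across genes, which are not independent replicates. HOXB7, a gene of the HOXB cluster, shows the same at the level of 1 gene, because its probe sets 204779_s_at and 216973_s_at stand 12037 rows apart. In the order used they read 1413, 1192 and 676 and 1381, 1265 and 753 in replicates 1, 2 and 3, so that they differed by at most 0.16 log2 units on any array. Under the names as deposited they read 16.5, 38.8 and 21.0 and 6.27, 17.1 and 15.6. Not every HOX pair agreed so closely in the order used: 204778_x_at of HOXB7 lay 1.99 log2 units under 216973_s_at on average. Over the 6 HOX genes with several probe sets, r between the first 2 was 0.46, and -0.09 as deposited. Every gene value here rests on this order, which was inferred from the data.

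**Figure D1:**
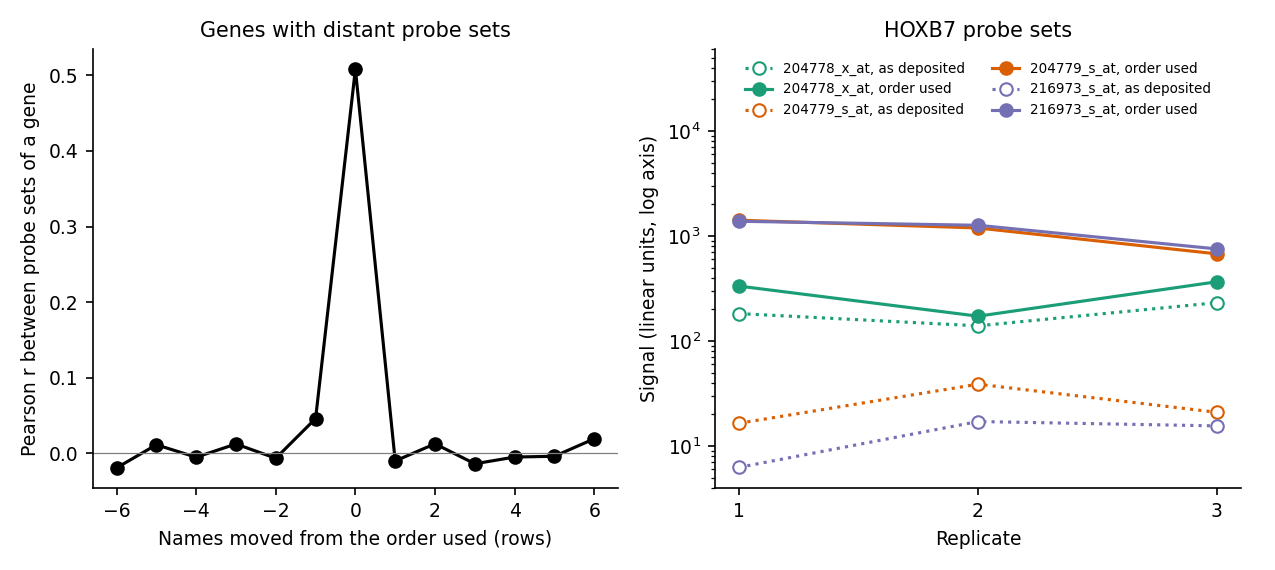
Left, the correlation (Pearson r, y axis) between distant probe sets of the same gene when the names are moved by the number of rows on the x axis from the order used: r is 0.51 at 0 and at most 0.05 elsewhere. Right, the linear signal (log axis) of the 3 HOXB7 probe sets in each replicate (x axis), with names as deposited (open points, dotted lines) and in the order used (filled points, solid lines): 204779_s_at and 216973_s_at lie on each other only in the order used.

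Of the HOX genes, 6 numbered from 4 to 9 in the HOXB and HOXC clusters were detected, and the remaining members were not. Detected were HOXB5, HOXB6, HOXB7 and HOXB9 in the HOXB cluster and HOXC4 and HOXC6 in the HOXC cluster. With limma's test 6 of 24 members (25%) were detected, against 41.8% of all genes tested. Those 6 members were also the ones whose 3 arrays all exceeded the limit, which 44.3% of all genes did. The median distance to the limit was -1.22 log2 units over the 24 members and -0.06 over all genes.

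Grouped by number, 5 of the 9 measured genes numbered 4 to 8 were detected (55.6%), beside 41.8% of all genes, of the 10 numbered 9 to 13 only HOXB9 was, and of the 5 numbered 1 to 3 none was. By cluster, 4 of 9 HOXB genes (44.4%), 2 of 7 HOXC genes (28.6%), 0 of 7 HOXD genes and 0 of 1 HOXA genes were detected, beside the same 41.8%. With so few genes in a group, the shares of HOXB and of the genes numbered 4 to 8 are not read as a departure from that background. For HOXD, HOXA2 and the genes numbered 1 to 3 the counts were also 0 at an unadjusted p under 0.05 in limma, with and without a variance trend. The differences between clusters or between numbers were not tested.

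**Figure D2:**
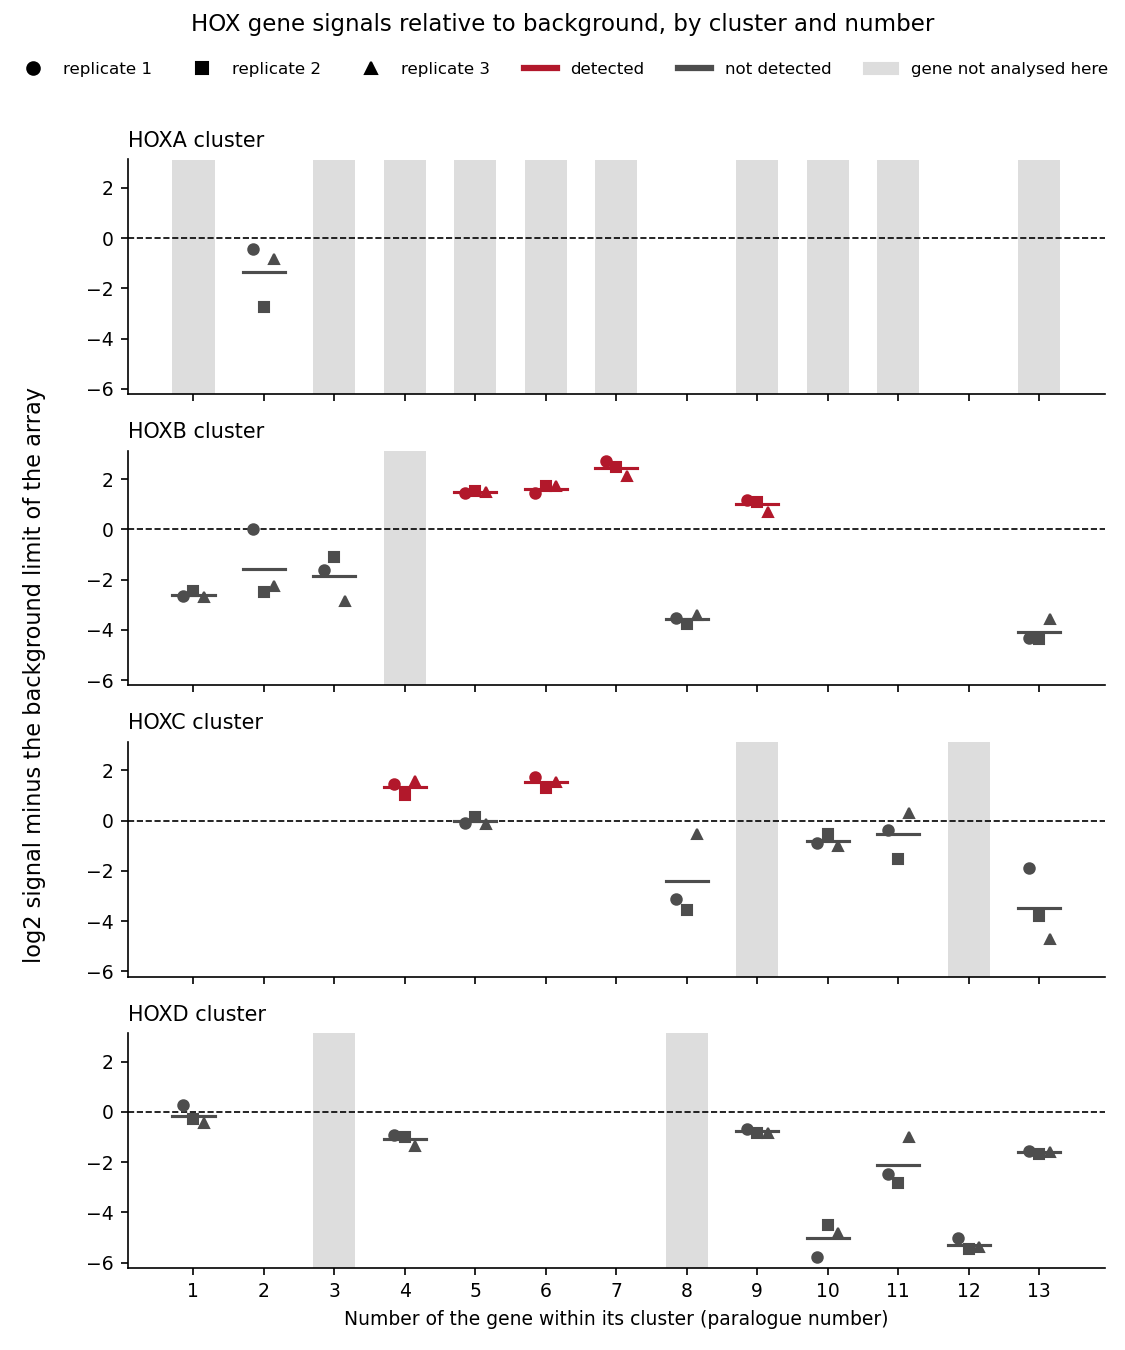
Log2 signal minus the background limit of the array (y axis) for each HOX gene, placed by its number (x axis) in 1 panel per cluster, with a symbol per replicate, a bar at the mean and a dashed line at the limit. The 6 detected genes (red) lie at numbers 4 to 9 of HOXB and HOXC, all other measured members (grey) average under the limit, and grey bands mark genes not analysed here.

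HOXB7, which lies between HOXB6 and HOXB8, gave signals of 1381, 1265 and 753 in replicates 1, 2 and 3. All 3 lay far above the limits, with the lowest in replicate 3. The mean was 1133 ± 334 (SD, n = 3), which is 2.44 ± 0.18 (SE) log2 units over the limit (adjusted p = 7.8e-07 in limma). The second of its probe sets read much the same, as shown for the order of the names. The third, 204778_x_at, read 333, 172 and 367, so it was above the limit in replicates 1 and 3 and under it in replicate 2. That probe set lay 1.99 log2 units under 216973_s_at on average, and its order of the replicates was different. The suffix _x_at marks probes that can hybridise to other transcripts, and _s_at marks a set shared by several transcripts of 1 or more genes.

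HOXB6, next to HOXB7 in the cluster, gave 571, 729.9 and 566 on 205366_s_at. All arrays lay well over the limit and replicate 2 was the highest. The mean was 622 ± 93.3 (SD, n = 3), 1.62 ± 0.18 (SE) log2 units over the limit (adjusted p = 1.3e-05 in limma). Its other probe set, 205365_at, gave 174, 186 and 158 and was under the limit on every array. The difference between them was steady over the arrays, with 205365_at minus 205366_s_at at -1.72, -1.97 and -1.84 log2 units in replicates 1, 2 and 3. Read from 205365_at alone, with the limit also taken from probe sets without a suffix, HOXB6 lay at -0.03 log2 units and was not detected.

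HOXB5, the detected gene nearest to the low-numbered end of HOXB, gave 576, 647 and 479.7 on 205600_x_at. The mean of 568 ± 84.0 (SD, n = 3) was 1.48 ± 0.18 (SE) log2 units over the limit (adjusted p = 2.2e-05 in limma). Its other probe set, 205601_s_at, gave 338, 468 and 391. Both sets were above the limit on every array, although they did not put replicates 1 and 3 in the same order.

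HOXB9, the only detected member numbered above 8, gave 479, 477 and 282. Replicates 1 and 2 were alike and replicate 3 was lower, yet above its limit. The mean was 412 ± 113 (SD, n = 3), 0.99 ± 0.20 (SE) log2 units over the limit (adjusted p = 0.00095 in limma). It was read from a single _x_at probe set. With the limit set at the highest gene of the background list, HOXB9 was no longer detected (0.37 log2 units, limma adjusted p = 0.165), while its adjusted p over the other alternatives that kept the order of the names and gave it a value lay between 0.00012 and 0.0208.

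HOXB8 stands between HOXB7 and HOXB9 in the RefSeq order and was at background. Its signals were 18.3, 16.6 and 16.1 on 221278_at, a mean of 17.0 ± 1.12 (SD, n = 3) and 3.57 log2 units under the limit. No array came near the limit, so the detected genes of HOXB are not an unbroken run as these probe sets read them. HOXB13, set apart from the others at the high-numbered end of the cluster and known from the distal colon and prostate, gave 10.6, 10.7 and 14.8, a mean of 12.1 ± 2.36 (SD, n = 3). It lay 4.08 log2 units under the limit and was low on all arrays.

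The low-numbered HOXB genes were not detected. HOXB1, which acts in the embryonic hindbrain, gave 33.8, 40.6 and 26.6. HOXB3 gave 69.0, 103.6 and 24.0. HOXB2 gave 217, 39.5 and 35.8, so that replicate 1 alone touched its limit while the other arrays were more than 2 log2 units under it. The SD of HOXB2 was 1.46 log2 units, and its mean of 97.3 ± 103 (SD, n = 3) describes no single array.

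HOXC6 and HOXC4 lie with HOXC5 at the low-numbered end of the HOXC cluster, next to SMUG1, and both were detected. HOXC6 gave 708, 551 and 499 in replicates 1, 2 and 3, with replicate 1 the highest and all of them above the limit. Its mean was 586 ± 108 (SD, n = 3), 1.53 ± 0.18 (SE) log2 units over the limit (adjusted p = 2.6e-05 in limma). HOXC4 gave 579.7, 452 and 519.8, also above the limit on each array, with a mean of 517 ± 63.9 (SD, n = 3) and 1.35 ± 0.19 (SE) log2 units over the limit (adjusted p = 9.5e-05 in limma). HOXC4 was the only detected member read from a probe set without a suffix, 206194_at.

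HOXC5 shares its annotated start with HOXC4 and lay at the limit itself. Its signals were 199, 244 and 159 on 206739_at, which is above the limit in replicate 2 and just under it in replicates 1 and 3. The mean of 201 ± 42.5 (SD, n = 3) was -0.03 ± 0.23 (SE) log2 units from the limit. With the limit at the 90th percentile it lay 0.38 log2 units over it and still did not pass (adjusted p = 0.127 in limma), and over all alternatives its adjusted p was 0.123 or higher. HOXC4, HOXC5 and HOXC6 are known to give transcripts that share a leading exon, and how far their probe sets read shared transcripts was not tested.

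HOXC8, HOXC10, HOXC11 and HOXC13 were not detected, and their replicates differed to unlike degrees. HOXC11 gave 163, 77.5 and 215, with replicate 3 alone above its limit. HOXC8 gave 24.4, 19.2 and 121, so replicate 3 was again the highest but under the limit. HOXC13, known from hair follicles and nails, gave 56.9, 16.1 and 6.66, with replicate 3 the lowest. HOXC10 gave 113, 154 and 86.9. The SD of log2 signal was 1.44 for HOXC8, 0.41 for HOXC10, 0.76 for HOXC11 and 1.56 for HOXC13.

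None of the 7 measured genes of the HOXD cluster was detected, and HOXD3 and HOXD8 were not among the members. HOXD1 came closest, with 252, 184 and 128 on 205975_s_at, where replicate 1 alone was above the limit. Its mean was 188 ± 62.2 (SD, n = 3), -0.15 ± 0.25 (SE) log2 units from the limit, and its other probe set, 205974_at, gave 57.3, 33.9 and 14.4. Both sets of HOXD1 were highest in replicate 1 and lowest in replicate 3. HOXD9 gave 132, 126 and 97.6, a mean of 119 ± 18.4 (SD, n = 3), and HOXD4 gave 112, 112 and 66.4, a mean of 96.6 ± 26.1 (SD, n = 3). HOXD10, HOXD11, HOXD12 and HOXD13, which pattern the limbs and the hind end of the gut and urogenital tract, had means of 6.61, 51.6, 5.25 and 66.4, and none was above the limit on any array.

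HOXA2, a hindbrain and branchial arch gene and the only member of its cluster measured, gave 155, 33.5 and 98.3. All 3 arrays were under the limit, by 1.33 log2 units on average, and replicate 2 was the lowest.

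Paralogues of the same number did not always share a call. At number 6 both measured genes, HOXB6 and HOXC6, were detected. At number 4 HOXC4 was detected and HOXD4 was not, at number 5 HOXB5 was and HOXC5 lay at the limit, and at number 9 HOXB9 was and HOXD9 was not. At number 8 neither HOXB8 nor HOXC8 was detected, and at number 13 none of HOXB13, HOXC13 and HOXD13 was. These are calls against the limit, and the signals of paralogues were not compared with each other.

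The kind of probe set moved with the calls. Of the 12 HOX probe sets with a suffix, 7 (58.3%) were above the limit on all arrays, against 46.8% of all suffixed probe sets. Of the 19 HOX probe sets without one, only that of HOXC4 was (5.26%), against 31.7% of all such sets. In all, 8 of 31 HOX probe sets were above the limit on all arrays, compared with 38.9% of all probe sets. When suffixed probe sets were left out, 18 members kept a probe set and only HOXC4 was detected (1.55 log2 units, limma adjusted p = 0.00022), against 34.3% of genes. HOXB5, HOXB7, HOXB9 and HOXC6 have suffixed probe sets only and could not be read that way. The part of related HOX transcripts in their signals was not tested.

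Having several probe sets gives a gene more chances to pass. Of the 18 members with a single probe set 3 were detected (16.7%), against 35.4% of all such genes. Of the 6 with several, 3 were (50%), against 53.2%. With the median over probe sets in place of the highest, for the background genes too, the same 6 members were detected, beside 4902 of all 11963 genes.

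**Figure D3:**
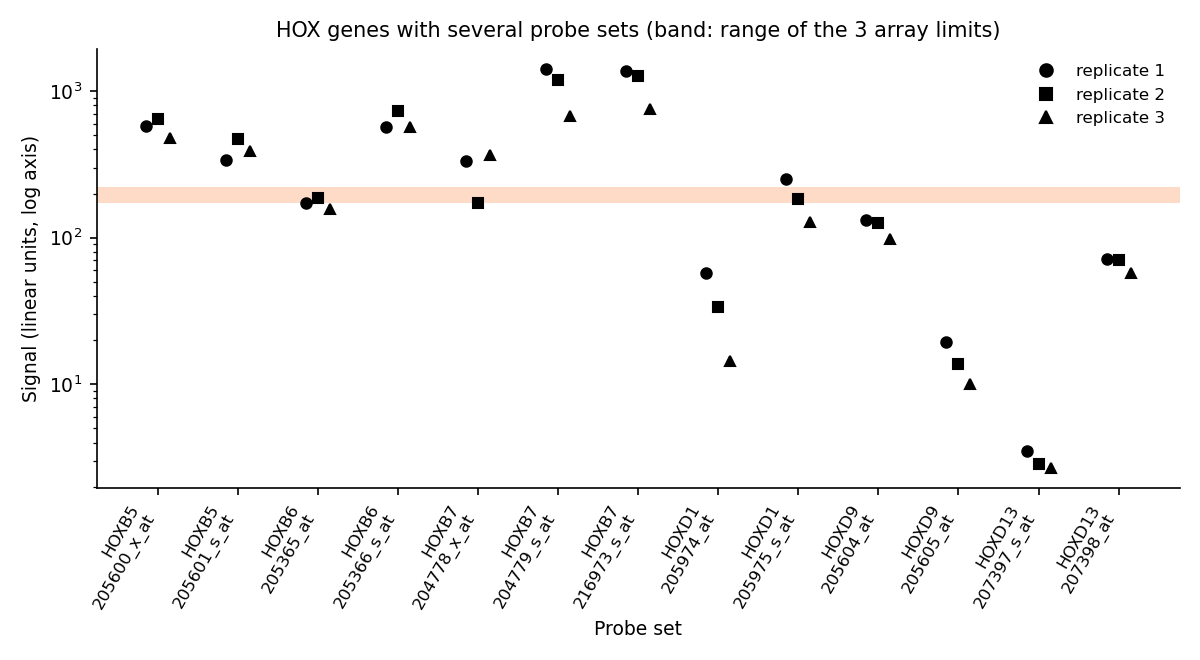
Linear signal (log axis) of each probe set of the 6 HOX genes that have several, with a symbol per replicate and a band over the range of the 3 array limits, 173 to 223. The HOXB5 probe sets and 2 of the 3 HOXB7 sets lie above the band, the HOXB6 sets fall on either side of their limits, and the HOXD1, HOXD9 and HOXD13 sets differ by 2.57 to 4.46 log2 units on average within a gene.

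The spread between replicates differed among the detected HOX genes. Over the 6 detected members the SD of log2 signal had a median of 0.24, with a range of 0.18 (HOXC4) to 0.44 (HOXB9) and 0.47 (HOXB7), beside a median of 0.29 over all 4999 detected genes. Over the 18 members not detected it was 0.46, and over all genes not detected 0.47. The detection test itself uses this spread, so the gap between detected and undetected genes is no separate result. Replicate 3 gave the lowest signal for 5 of the 6 detected members, HOXC4 being the exception, while it was the lowest array for 45.1% of all detected genes. HOXB7 and HOXB9 were lower in replicate 3 than in the mean of replicates 1 and 2 by the most, at -0.81 and -0.76 log2 units. Over all detected genes that difference had a median of -0.07 and a lowest decile of -0.84, so both lie within the range of most genes. Leaving out any of the replicates left the same 6 members detected.

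HOX proteins bind DNA with partners from the TALE class, among them the PBX, MEIS and PKNOX homeodomain proteins. Of the 6 measured PBX, MEIS and PKNOX genes, called the TALE genes here, 3 were detected (50%), beside 41.8% of all genes. With so few genes this share is not read as a departure from that background. MEIS2 gave 1578, 998 and 1674, a mean of 1417 ± 366 (SD, n = 3) and 2.78 log2 units over the limit (adjusted p = 1.3e-06 in limma). PKNOX2 gave 979, 1021 and 856 on 63305_at, but its 3 other probe sets were under the limit on most or all arrays, and with the median over its sets it lay at -0.11 log2 units. The name of 63305_at was placed with a block of low-numbered probe sets that was checked more weakly (r = 0.34 over 446 of them, at most 0.13 when moved by up to 6 rows). The same block gave the calls of PHF1 and RING1 among the Polycomb genes and of KDM6B among the MLL genes counted below. It also held SFTPC, the highest background gene in replicate 1. PBX3 gave 276, 363 and 236 and was detected by a narrow margin (adjusted p = 0.043 in limma). That call was lost when replicate 1 or replicate 2 was left out (limma adjusted p = 0.163 and 0.203), with log2(signal + 50) (0.0524), without the variance trend (0.0702) and with the limit at the highest background gene. PBX2 lay at the limit with 227, 218 and 158, MEIS1 was under it with 65.4, 67.3 and 74.4, and PKNOX1, with 260, 315 and 276, missed the threshold (adjusted p = 0.0525 in limma). PKNOX1 passed with the limit at the 90th percentile (limma adjusted p = 0.0022). It also passed without replicate 2 (0.0028), but there the brightest probe set was picked anew. The set read in that setting was 221883_at (372, 178 and 315 in replicates 1, 2 and 3) in place of 204195_s_at. Of the 5 probe sets of PKNOX1, 1 was above the limit on all arrays.

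Genes of the complexes that keep HOX genes silent or active were read beside the 41.8% of all genes. Of 18 measured Polycomb genes 13 were detected (72.2%), RBBP4, a histone-binding subunit, among them at 3677, 3494 and 3320, while CBX2, a Polycomb subunit that reads histone marks, was low at 9.03, 5.46 and 7.58. Of 15 measured MLL and trithorax genes, which act against Polycomb, 8 were detected (53.3%), among them PSIP1 at 1685, 1383 and 1598. MLLT1 was low at 3.24, 3.68 and 9.50. Retinoic acid and the CDX factors switch HOX genes on in the embryo, and 5 of 15 measured genes of these inputs were detected. ALDH1A1, which makes retinoic acid, gave 3676, 3201 and 4273, whereas CDX2, the intestinal homeobox factor, gave 16.6, 11.3 and 9.78. With the median over probe sets the Polycomb, MLL and retinoic acid counts were 10, 6 and 3, beside 4902 of all 11963 genes. With the limit at the highest background gene they were 10, 5 and 3, beside 3947 of all 11963 genes. With suffixed probe sets left out they were 6 of 13, 4 of 10 and 3 of 12, beside 34.3% of all genes.

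Genes beside the clusters give the signal of the same chromosomal neighbourhoods. Of 11 measured flanking genes 8 were detected (72.7%), beside 41.8% of all genes. Without suffixed probe sets it was 5 of 7, beside 34.3%. SKAP1, next to HOXB1, gave 345, 384 and 284. SMUG1 and CALCOCO1, on either side of the HOXC cluster, gave 392, 362 and 306 and 591, 501 and 231. MTX2, next to HOXD1, gave 1258, 1400 and 1315, a mean of 1325 ± 71.3 (SD, n = 3), although no measured HOXD gene was detected. EVX1, next to HOXA13, was not detected, at 25.9, 44.0 and 36.5. Nor were SNX10, at 9.51, 6.77 and 12, and NFE2, at 4.93, 29.0 and 11.2. The calls of SKAP1 and SMUG1 were lost when replicate 1 was left out (adjusted p = 0.0601 and 0.0558 in limma), and those of SKAP1, SMUG1 and CALCOCO1 with the limit at the highest background gene (0.79, 0.554 and 0.205).

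Most homeobox genes outside the clusters, the TALE genes above left aside, were not detected. Of 67 measured, 5 were (7.46%, beside 41.8% of all genes): MNX1, ISL1, TGIF1, TGIF2 and ADNP. The median distance to the limit was -2.40 log2 units over the 67, against -1.22 for the HOX genes. Which of these lists holds more detected genes than another was not tested. The call of TGIF2 was lost when replicate 1 was left out (adjusted p = 0.078 in limma).

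Markers of the labelled cell type were mostly detected. Of 18 measured colon epithelial markers 16 were detected (88.9%), beside 41.8% of all genes. CDH17 and GPA33 were not, with means of 14.3 ± 3.35 and 179 ± 27.7 (SD, n = 3 each). Markers of other cell types were nearly all at background: 1 of 15 fibroblast and smooth muscle genes (COL1A1), 0 of 9 endothelial genes (also 0 at an unadjusted p under 0.05 in limma, with and without a trend) and 1 of 14 leukocyte genes (LYZ, which gut epithelium also makes). COL1A1 gave 423, 526 and 185 on 1 of its 4 probe sets, and its call was lost when replicate 1 or replicate 2 was left out (adjusted p = 0.1 and 0.0778 in limma). Of 11 measured interferon response genes 9 were detected, as were 13 of 14 housekeeping genes, beside the same 41.8% of all genes. Those missed were CIITA (180, 181 and 198) and SOCS1 (270, 358 and 173) of the interferon list and POLR2A (218, 194 and 135) of the housekeeping list. A call of not detected does not show that a gene is silent.

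**Figure D4:**
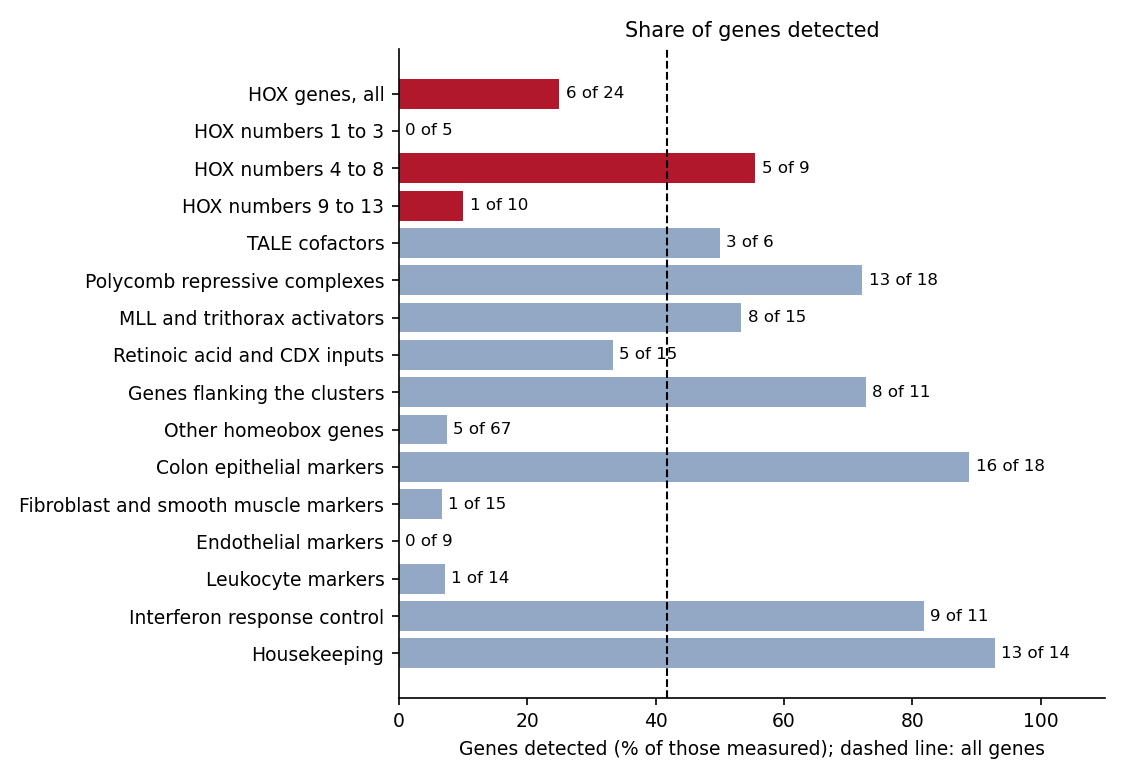
Share of measured genes detected by limma (x axis, percent) in the HOX genes, in HOX genes by number (red) and in the other gene lists (blue), with counts beside the bars and a dashed line at 41.8%, the share over all genes. HOX genes numbered 4 to 8 lie above the line at 5 of 9, and those numbered 1 to 3 and 9 to 13 lie under it at 0 of 5 and 1 of 10.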

How the data were processed

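Expression was measured on Affymetrix arrays in 3 replicates, 1 array each. The deposited values are linear signal intensities per probe set, and MAS5 and the Affymetrix Expression Console 1.1 are the tools named for them, per the submitters' processing notes. The mean of each array without its highest and lowest 2% was 500, so the authors' values were already scaled; the background step is not given in the sources used here. Of 22283 rows 22277 held values.

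Names were placed as 15 unnamed values, 100 probe sets numbered 200000 to 200099, 493 with lower numbers, 21622 others in file order, and 47 unnamed values. The 19065 placed probe sets with 1 symbol were used, those with several (1043) were not, and 2169 rows had no annotation here. Signals were taken to log2 with no pseudocount and fitted in limma 3.58.1 (R 4.3.3) with an intercept and a variance trend. The limit was treated as known. On simulated data over 11963 genes, 70% of 50 genes placed 0.5 log2 units over the limit, 88% at 1 and 96% at 2 were recovered, and 0.0576% of calls were false. Every other gene kept its observed mean as its true one. The share of false calls therefore covers noise between arrays only, and not probe background or cross-hybridisation. Among the 71 background genes 1, RHAG, read from an _x_at probe set, was itself detected (adjusted p = 0.033 in limma). No intervals over counts apply to arrays; their number limits the precision.

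The members, lists and tests were chosen with earlier results of these data known. Named beside the members were all TALE genes, and of the other lists up to 3 detected genes with the smallest adjusted p and up to 2 undetected with the largest, ties going to the gene farthest under the limit. SKAP1, SMUG1, CALCOCO1 and MTX2, as neighbours of a cluster, and the 5 detected homeobox genes were chosen after their values were seen. So were the undetected flanking, interferon response and housekeeping genes. Alternatives were the median over probe sets, no suffixed probe sets, quantile normalization, a limit at the 90th percentile or the highest background gene, log2(signal + 50), no variance trend, names as deposited and each replicate left out.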

Additional observations from a re-analysis of the deposited data

How the results depend on the processing

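The 6 detected HOX genes were the same under the median over probe sets, quantile normalization, a limit at the 90th percentile, log2(signal + 50), no variance trend and without any of the replicates (6 in each). Of all 11963 genes, 4626 to 5638 were detected in those settings. The limit at the highest background gene left 5, without HOXB9, beside 3947 of all 11963 genes. Without suffixed probe sets it was 1 of 18, HOXC4, the other 6 members having no such probe set, and 2 HOX probe sets, those of HOXC4 and HOXC5, were above the lower limit of that setting on all arrays. There HOXB6 lay at -0.031 log2 units.

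Under the names as deposited 1 HOX gene and 1 HOX probe set passed, HOXB1 at 1.44 log2 units, with limits of 4063, 3901 and 3478. There HOXB5 lay at -6.74, HOXB6 at -5.32, HOXB7 at -4.40, HOXB9 at -7.57, HOXC4 at -6.73 and HOXC6 at -5.18 log2 units. PBX3 lay at -1.89, MEIS2 at -2.11, PKNOX2 at -1.58, RBBP4 at -5.46, PSIP1 at -1.80, ALDH1A1 at -6.31, SKAP1 at -6.01, SMUG1 at -4.25, MTX2 at -0.10 and CALCOCO1 at -3.33. MNX1 lay at -7.08, ISL1 at -6.70, TGIF1 at -0.020, TGIF2 at -2.76, ADNP at -1.39, COL1A1 at -3.69 and LYZ at -5.35. The median SD of the 6 HOX genes was 0.60. Between the first 2 probe sets of a gene, near or distant, r was 0.19 over 4310 genes, against 0.60 in the order used. Detected there were 385 genes in all, 3 colon epithelial markers, 2 housekeeping genes, 1 other homeobox gene, and 0 of the TALE, Polycomb, MLL, retinoic acid, flanking, fibroblast, leukocyte and interferon response genes.

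Without suffixed probe sets fewer genes had a value, and 2864 of 8361 genes were detected, with 6 Polycomb, 4 MLL, 3 retinoic acid, 5 flanking, 3 other homeobox, 10 colon epithelial, 7 housekeeping, 0 fibroblast and 0 leukocyte genes. With the limit at the highest background gene, 5 MLL, 3 retinoic acid, 5 flanking, 3 other homeobox and 0 fibroblast genes were detected, beside 3947 of all 11963 genes. There PBX3 lay at -0.12, and SKAP1, SMUG1, CALCOCO1, ISL1, TGIF2 and COL1A1 were no longer called. With the median over probe sets, 3 retinoic acid and 0 fibroblast genes were detected, beside 4902 of all 11963 genes. PKNOX2 lay there at -0.11 and COL1A1 at -1.73. Without the variance trend 0 fibroblast genes were detected, and leaving out a replicate gave 0 to 1. The cause of these changes was not tested.

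No paired analysis was possible because the 3 arrays form a single group. HOXC5 and HOXD1 lay at -0.03 and -0.15 log2 units from the limit, with standard errors of 0.23 and 0.25 that are larger than those distances.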

Other observations

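The probe sets annotated to HOXD3 and HOXD4 together with another symbol name no single gene and were left out of the members. Their signals were 11.1, 17.0 and 26.3 on 206601_s_at, 9.89, 65.1 and 7.70 on 206602_s_at and 1.56, 4.65 and 8.33 on 217076_s_at in replicates 1, 2 and 3. All were under the limit of their array, as was HOXD4 on its own probe set.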
